A study of Tursiops truncatus with 31 samples.

Results

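The genes described here encode the proteins of the mitochondrial ribosome, and were taken as every gene of the genome expression table whose symbol begins with MRPL or MRPS followed by a number. There were 72 such genes of 9610, namely 45 MRPL genes, named for the large subunit, and 27 MRPS genes, named for the small subunit. Of the 72 symbols, 71 were also found in the RefSeq list for the mTurTru1 dolphin assembly, which holds 77 such symbols, and the 6 RefSeq symbols not among the members were not analysed here. The rule leaves out mitoribosome proteins with other names, such as DAP3, PTCD3 and GADD45GIP1, which were kept as a separate list with 7 measured genes.

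The proteins of the mitochondrial ribosome are encoded by nuclear genes and made in the cytosol. They are imported separately and assembled on ribosomal RNA encoded by the mitochondrial genome. The mitochondrial ribosome translates only the few proteins that this genome encodes, all of them subunits of the respiratory chain complexes or of ATP synthase. Complexes I, III and IV and ATP synthase are thus each built from products of both genomes. Some proteins of the mitochondrial ribosome have counterparts in bacterial ribosomes and others are found only in mitochondria. In structures of the mammalian particle, the products of MRPS30 and MRPS18A lie in the large subunit in spite of their names, and MRPS36 is now regarded as a component of the ketoglutarate dehydrogenase complex. Mature mammalian red cells have lost their mitochondria, while white cells, platelets and young red cells carry them.

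Expression had been measured by RNA-seq of globin-depleted peripheral blood from 4 healthy managed bottlenose dolphins sampled through a year, giving 31 libraries. The females were Keo (12 years, 9 libraries) and Pele (28 years, 7 libraries), and the males were Hua (5 years, 8 libraries) and Kai (17 years, 7 libraries). Summer comprised 8 libraries of July, August and September, winter comprised 8 libraries of December and February, and 15 libraries came from other months. The libraries of an animal are repeated samples, sex has only 2 animals on each side, and sex, age and individual cannot be told apart. Values are in FPKM, which corrects fragment numbers for the length of a transcript and the size of a library, and only a targeted depth was stated, so the depth reached in each library is not known.

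The libraries were those of blood, with ALAS2 of red cells averaging 30881 ± 7923 FPKM (SD, n = 31), the highest of the 15 measured erythroid markers. The February and July libraries of Kai had the lowest levels of the family, with a mean log2(FPKM + 1) over the members of 3.32 and 3.34, against 3.71 to 5.09 in the other libraries. They also had the most members listed at 0, at 10 and 9 of 72, but the May library of Pele with 8 and the March library of Hua with 7 were close to them, and the median over the 31 libraries was 1. The 100 most abundant genes held 84.6% and 84.4% of the summed FPKM of these 2 libraries, the highest shares of all, and 59.2% to 82.3% elsewhere. Because FPKM are shares of a library, values are also given after median-ratio scaling, which divides each library by the median ratio of its genes to their geometric mean over the libraries (6105 genes above 0 in every library were used). The divisors averaged 1.16 ± 0.229 in females (n = 16) and 0.898 ± 0.210 in males (n = 15).

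Mitochondrial ribosomal protein transcripts were moderately abundant in blood and differed 101-fold among themselves. MRPS15, the counterpart of a bacterial small subunit protein that binds ribosomal RNA early in assembly, had the highest mean (175 ± 32.6 FPKM, SD, n = 31), at rank 480 of 9610 genes. It was followed by MRPL41 (168 ± 61.9 FPKM), found only in mitochondria, by MRPS21 (162 ± 61.3 FPKM), a counterpart of bacterial S21, by MRPL52 (148 ± 55.1 FPKM) and by MRPL34 (105 ± 51.8 FPKM), the counterpart of bacterial L34. Neighbours among the 4 highest lay within their spread over libraries. These 5 genes held 28.4% of the summed FPKM of the family. At the other end were MRPL19 (1.74 ± 1.95 FPKM), MRPL49 (2.56 ± 2.49 FPKM), MRPS28 (3.01 ± 3.33 FPKM), MRPL4 (3.22 ± 2.24 FPKM) and MRPS5 (4.34 ± 2.76 FPKM), and the spread of each of these overlapped that of its neighbours.

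The middle of the family was narrow. The median member averaged 24.5 FPKM, with quartiles of 13.3 and 41.9 FPKM, against a median of 10.1 FPKM over all genes of the table, and 62 of the 72 members averaged above 10 FPKM. The median was 24.9 FPKM for the 43 members with bacterial counterparts and 24.3 FPKM for the 29 found only in mitochondria. In the Cufflinks table, made by the authors with another quantifier, 70 members were listed (MRPL19 and MRPL4 were not), and across them the 2 tables ranked the means alike (Spearman's rho 0.967, across genes).

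**Figure D1:**
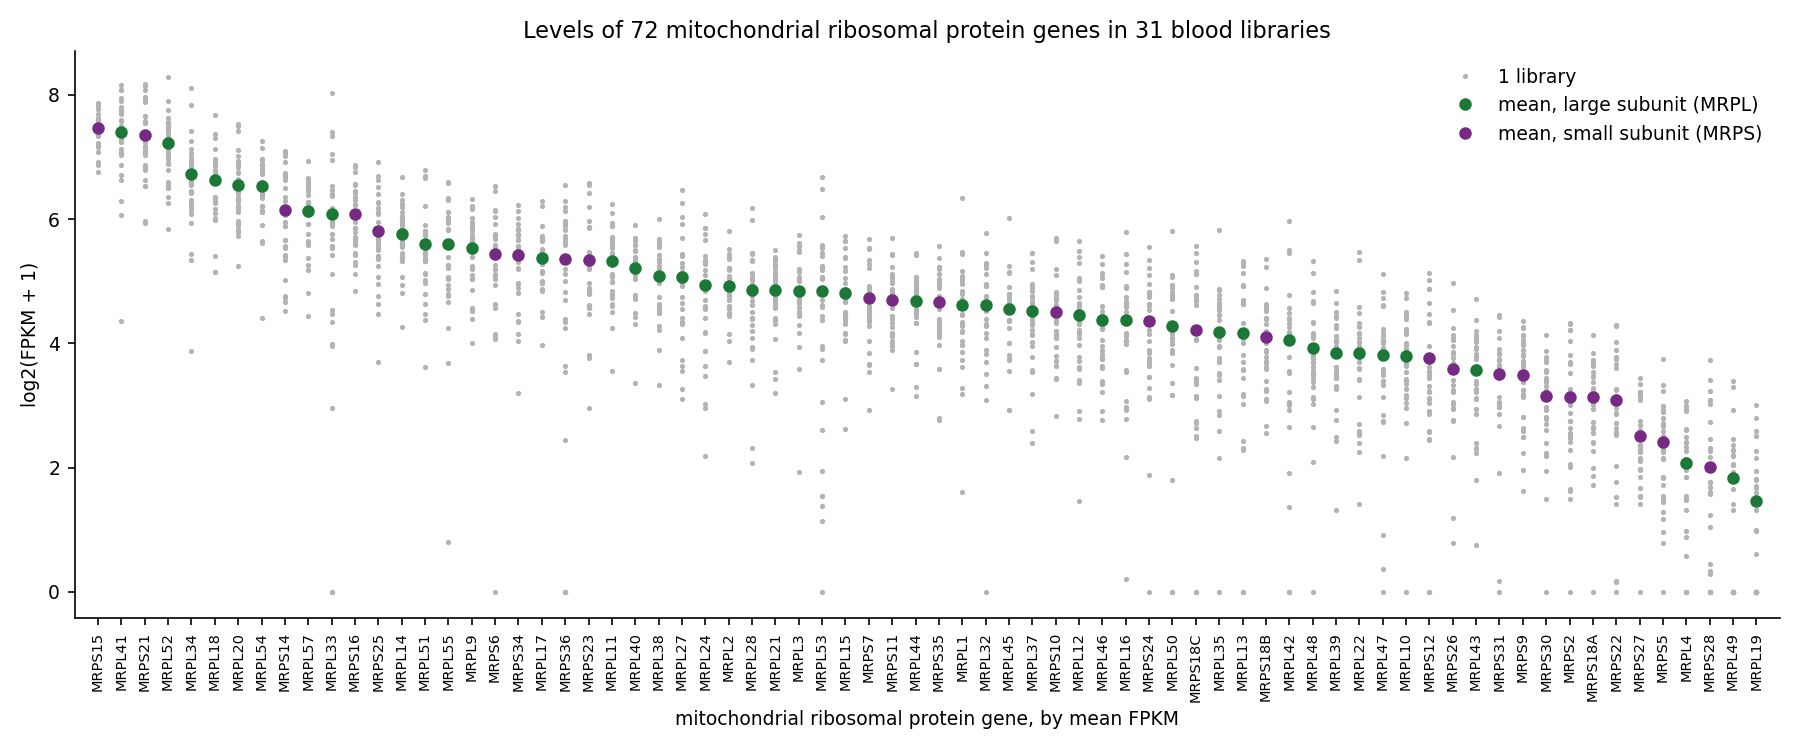
Level of each of the 72 members, as log2(FPKM + 1), in order of mean FPKM, with a grey point for each of 31 libraries and a coloured point at the mean, green for the large and purple for the small subunit. The means run from 175 FPKM (MRPS15) to 1.74 FPKM (MRPL19), and both subunits are spread over the whole range.

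Scarcer members tended to be more variable between libraries. Across the 72 members, mean level and coefficient of variation had a Spearman's rho of −0.62. MRPL19 was listed at 0 in 12 libraries, MRPL49 in 10, MRPS28 in 8 and MRPL4 in 4, and 26 members were at 0 in at least 1 library, while 46 were above 0 in all. Zeros made up 2.96% of the members' values and 5.13% of all values of the table. The coefficient of variation over 31 libraries was largest for MRPL19 (112%), MRPS28 (111%), MRPL49 (97.3%), MRPL42 (87.8%) and MRPL53 (87.6%). It was smallest for MRPS15 (18.6%), MRPL40 (29.6%) and MRPL54 (31.1%), and its median was 48.6% over the members and 52.4% over all genes. Abundance alone did not order the variation: MRPL33 averaged 67.01 FPKM but ran from 0 to 261 FPKM (83.5%), and MRPS36 averaged 40.1 FPKM with 0 in 3 libraries.

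The large subunit genes together gave about 1.9 times the FPKM of the small subunit genes, with little difference between libraries. The 45 MRPL genes summed to 1743 ± 395 FPKM and the 27 MRPS genes to 931 ± 211 FPKM (SD, n = 31), and their ratio was 1.88 ± 0.173, from 1.498 in the May library of Pele to 2.39 in the May library of Hua. The ratio of the gene numbers is itself above 1, and per gene the medians were 27.7 FPKM for MRPL and 19.5 FPKM for MRPS genes, with quartiles of 17.2 to 45.2 FPKM and 9.05 to 40.9 FPKM that largely overlap. With MRPS30 and MRPS18A counted in the large subunit and MRPS36 left out, the ratio was 2.02, and without the 3 most abundant genes of each subunit 2.55. By animal the ratio averaged 1.79 ± 0.142 in Keo, 1.84 ± 0.183 in Pele, 2.01 ± 0.165 in Hua and 1.88 ± 0.146 in Kai, ranges that overlap. It averaged 1.94 ± 0.101 in summer and 1.83 ± 0.134 in winter libraries (n = 8 each), also within the spread.

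Between animals, the mean level of the family was lowest in Kai. Summed over the 72 members, FPKM averaged 2713 ± 615 in Keo, 3013 ± 500.2 in Pele, 2744 ± 568.5 in Hua and 2203 ± 488 in Kai, or 0.211%, 0.231%, 0.196% and 0.149% of all FPKM. Of the 72 members, 59 (81.9%) had their lowest animal mean in Kai, as did 55.7% of all genes. After scaling the mean log2 level of the family was still lowest in Kai, but within the spread. It was 4.36 ± 0.173 in Keo, 4.48 ± 0.329 in Pele, 4.63 ± 0.324 in Hua and 4.32 ± 0.299 in Kai, ranges that overlap throughout. On that scale 46 members (63.9%) had their highest mean in Hua, against 29.4% of all genes, and 35 (48.6%) their lowest in Kai, against 32.6% of all genes.

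**Figure D2:**
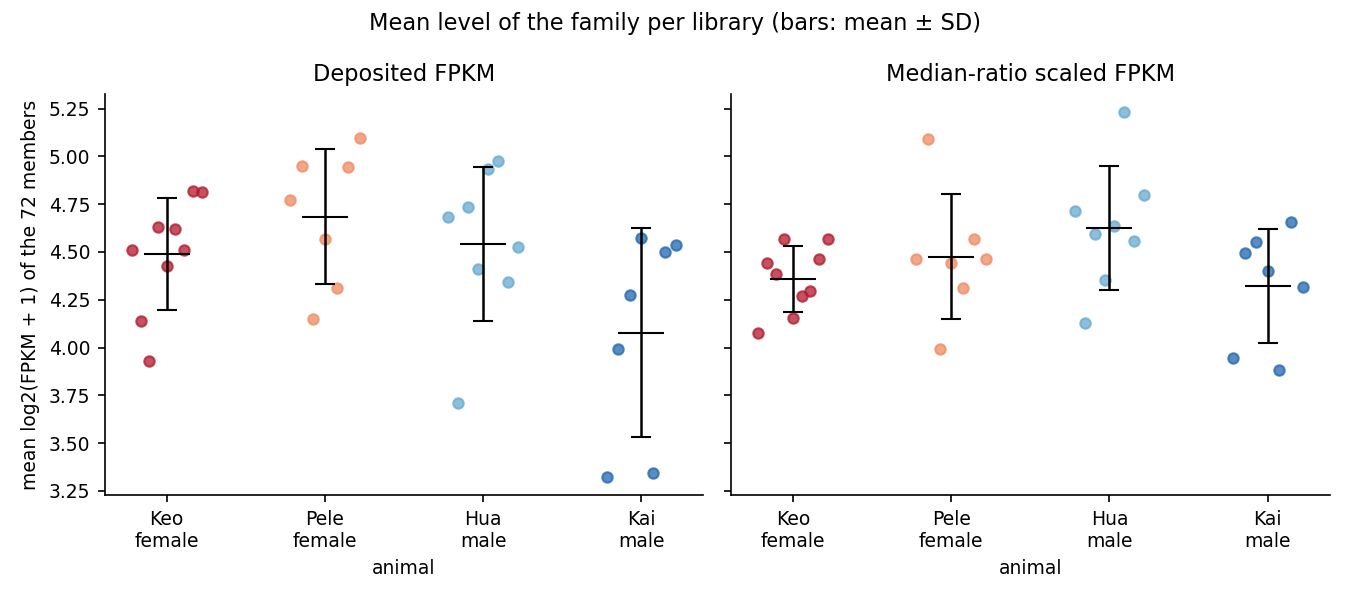
Mean log2(FPKM + 1) of the 72 members in each library by animal, females at the left, with deposited values in the left panel and median-ratio scaled values in the right; bars are mean ± SD. The February and July libraries of Kai, at 3.32 and 3.34, are the lowest of the left panel, and the animals overlap in both panels.

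Females had higher deposited values of most members, as of most genes. On the log2(FPKM + 1) scale, which understates changes of low genes, the female minus male difference was above 0 for 59 of 72 members, with a median of 0.29, against a median of 0.34 over all 9610 genes. In limma's moderated test, adjusted over all genes, 4 of 72 members were higher in females and 0 were lower, while 12.1% of all genes tested were called higher and 0.937% lower, so the share of members called was below the background. The test counted each library as a separate animal would be, although only 4 animals gave them, and the p-values are too small to that extent. After scaling, 0 members were called in either direction, with 0.593% of all genes called higher and 1.82% lower. The median of the members was then −0.08 and that of all genes 0.04, and 30 of 72 members were above 0. Without scaling, 17 of 72 members and 3074 of 9610 genes had an unadjusted p under 0.05, and with scaling 7 members and 1318 genes.

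MRPS21 ran from 114 to 289 FPKM in female libraries (median 186), against 60.1 to 249 FPKM in male libraries (median 135). The groups overlapped, though 13 of 16 female libraries lay above the male median, and the log2 difference was 0.54 ± 0.18 (SE, adjusted p = 0.0414). MRPL41 had 117 to 285 FPKM (median 208) in female and 19.6 to 212 FPKM (median 156) in male libraries, a log2 difference of 0.66 ± 0.23 (adjusted p = 0.0487). The 7 libraries of Pele all held 181 FPKM or more, and the lowest value was the February library of Kai.

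MRPL38, a large subunit protein found only in mitochondria, had 21.4 to 63.1 FPKM (median 41.0) in female and 9.03 to 50.1 FPKM (median 23.8) in male libraries, with a log2 difference of 0.58 ± 0.20 (adjusted p = 0.0432). MRPS18B, one of 3 members related to bacterial S18, had 8.63 to 40.2 FPKM (median 18.2) in female and 4.87 to 28.6 FPKM (median 11.0) in male libraries, a log2 difference of 0.65 ± 0.22 (adjusted p = 0.0466), and 15 of 16 female libraries exceeded the male median. In both genes it was Kai that was low, with means of 20.3 and 8.49 FPKM, against 31.8 and 16.2 FPKM in Hua, the other male. None of the 4 calls stood without the February and July libraries of Kai (adjusted p = 0.114 to 0.127), without Kai altogether (0.116 to 0.529), or with animal as a random block (0.0697 to 0.0788).

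The largest differences did not pass the test. MRPS12, the counterpart of the bacterial decoding-centre protein S12, had the highest, a log2 difference of 1.00 ± 0.37 (adjusted p = 0.064), with medians of 11.6 FPKM in female and 7.56 FPKM in male libraries. MRPS22 (0.97, adjusted p = 0.0655), MRPL16 (0.79, 0.112), MRPL10 (0.73, 0.0856) and MRPS23 (0.71, 0.0606) followed. The lowest belonged to MRPL55 (−0.71, adjusted p = 0.155), MRPL34 (−0.62, 0.0791), MRPL33 (−0.57, 0.508), MRPS28 (−0.47, 0.432) and MRPS36 (−0.35, 0.698), so both ends held members of either subunit. The medians were 0.22 over MRPL and 0.31 over MRPS genes.

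**Figure D3:**
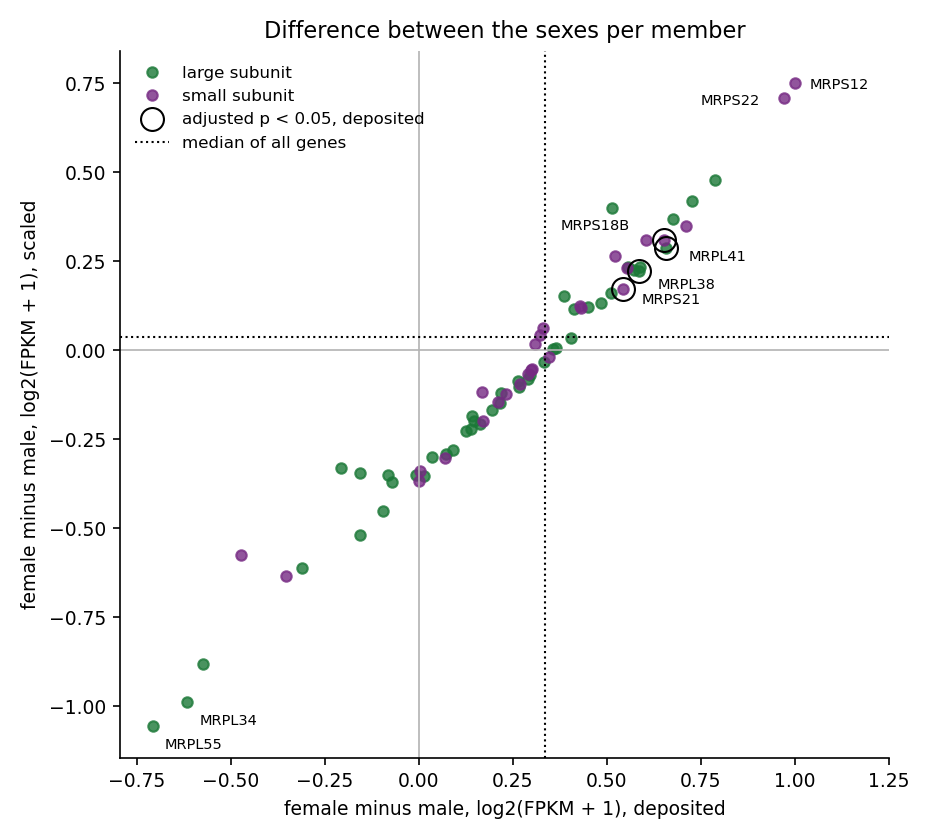
Female minus male difference of each member in log2(FPKM + 1), deposited values on the horizontal and median-ratio scaled values on the vertical axis, with dotted lines at the medians of all genes (0.34 and 0.04). The 4 circled members passed on deposited values, where 59 of 72 points lie above 0, against 30 of 72 on scaled values.

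Individual animals differed in a handful of members. The test over the 4 animals called 5 of 72 members, where 10.3% of all genes were called, and after scaling 2 of 72, where 7.34% were called. MRPL24, the counterpart of a bacterial protein that starts large subunit assembly, was called both ways (limma adjusted p = 0.0248 as deposited and 0.0252 scaled). It had 7.14 to 56.8 FPKM (median 22.7) in Keo, 6.75 to 53.4 FPKM (median 37.7) in Pele, 27.6 to 66.9 FPKM (median 39.8) in Hua and 3.53 to 23.2 FPKM (median 13.7) in Kai. The libraries of Hua and Kai, both males, did not overlap, and those of the females lay across both. The call was lost without Hua (adjusted p = 0.134), without Kai (0.360) and without the February and July libraries of Kai (0.121).

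MRPL34 went the other way. It had 13.7 to 120 FPKM (median 85.4) in Keo, 39.6 to 122 FPKM (median 94.8) in Pele, 69.7 to 127 FPKM (median 81.2) in Hua and 93.1 to 275 FPKM (median 152) in Kai. Its mean was 170 ± 62.0 FPKM in Kai and 83.9 to 89.2 FPKM in the other animals. The test over animals gave an adjusted p of 0.0529 as deposited and 0.0145 scaled, and 0.0208 when the Cufflinks values were scaled. Without the February and July libraries of Kai it gave 0.161 as deposited and 0.101 scaled. It is 1 of 2 members whose deposited animal mean was highest in Kai, the animal lowest in most members; the other was MRPS15, at 192 ± 17.6 FPKM in Kai and 153 to 181 FPKM elsewhere (adjusted p = 0.330).

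The remaining calls over animals on deposited values were MRPL38 (adjusted p = 0.0421), MRPS18C (0.0447), MRPS18B (0.046) and MRPS12 (0.0482). All 4 were lowest in Kai, and MRPS18C and MRPS12 were highest in Pele, at 24.9 ± 13.9 and 21.7 ± 10.1 FPKM, against 8.23 ± 9.07 and 6.64 ± 5.23 FPKM in Kai. None was called after scaling (0.0961 to 0.319).

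**Figure D4:**
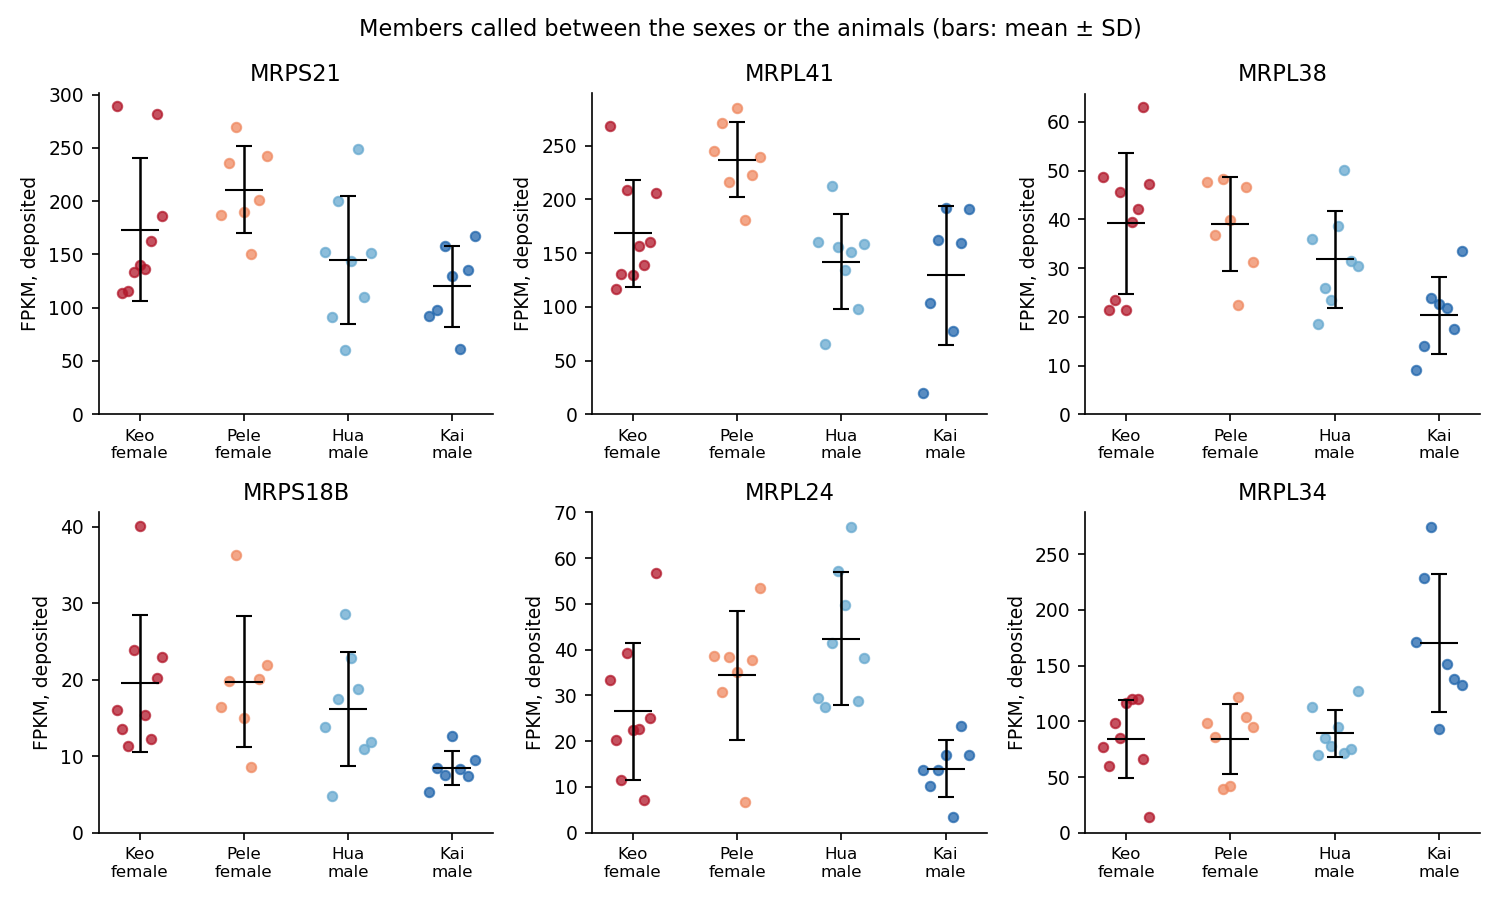
Deposited FPKM of 6 members by animal, females at the left of each panel, with a point per library and mean ± SD. MRPS21, MRPL41, MRPL38 and MRPS18B passed between the sexes, MRPL24 is low in Kai (mean 14.0 FPKM), and MRPL34 is high in Kai (mean 170 FPKM).

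MRPL34, MRPS15 and MRPL55 were the members that correlated best with the red cell markers on scaled values. On scaled values across 31 libraries, the correlation with the mean of the 15 erythroid markers was 0.75 for MRPL34 (rho 0.76), 0.71 for MRPS15 (rho 0.74) and 0.57 for MRPL55 (rho 0.46). Leaving out the 2 libraries with the most extreme marker means gave 0.73, 0.70 and 0.54. Within single animals the values ran from 0.24 to 0.91, from 0.18 to 0.88 and from 0.22 to 0.72. On deposited values they were 0.55, 0.11 and 0.40. The correlated values share libraries and their scaling, the genes were compared with the red cell markers after their values had been seen, and the largest value among the other 69 members was 0.39, for MRPL51.

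Red cell markers themselves differed between the sexes. Of the 15, 0 were higher and 5 lower in females on deposited values, where 12.1% of all genes were higher and 0.937% lower, and their summed FPKM ran from 20427 to 46322 in female libraries and from 27544 to 53997 in male libraries. None of the 15 averaged below 2.17 FPKM (KLF1), and CA1, carbonic anhydrase, averaged 350 ± 110 FPKM in females and 668 ± 284 FPKM in males. Of the other blood cell markers, 5 of 8 neutrophil and 4 of 7 monocyte markers were higher in females on deposited values. The remaining lists had few calls beside the 12.1% of all genes. They were 2 of 8 NK and cytotoxic, 1 of 11 T cell, 1 of 3 platelet and 0 of 7 B cell markers. Of the genes of all these lists, 0 were lower. The summed neutrophil markers ran from 5224 to 16279 FPKM (median 8235) in female and from 2407 to 8175 FPKM (median 5399) in male libraries. The summed monocyte markers ran from 12199 to 42111 FPKM (median 24777) in female and from 9006 to 30360 FPKM (median 22356) in male libraries, so both overlapped. After scaling, 5 of the 15 red cell markers were still lower in females and 0 higher, where 1.82% of all genes were lower and 0.593% higher. On that scale 1 monocyte marker and 0 neutrophil markers were called higher. From expression in bulk blood alone, fewer cells of a type and less RNA per cell cannot be told apart. The paper reports a higher hematocrit in the males than in the females, and a low lymphocyte percentage in Kai. Those measurements were not used here, and the part of these cell types in the values of MRPL34, MRPS15, MRPL55 and the other members was not tested.

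Season was not marked in the family at this sample size. Summer minus winter, 0 of 72 members passed, as did 0 of 9610 genes (0% called), and 1 member and 285 genes had an unadjusted p under 0.05. The median difference was 0.00 over the members and −0.04 over all genes. The only member below that unadjusted level was MRPL53, a large subunit protein found only in mitochondria, at 14.5 to 101 FPKM (median 37.0) in summer and 1.2 to 46.7 FPKM (median 16.9) in winter libraries, groups that overlap. Its log2 difference was 1.58 ± 0.57 (SE, limma adjusted p = 0.999), and 1.75 with the Cufflinks values. Next came MRPL19 (0.87) and MRPL55 (0.74), and at the other end MRPL28 (−0.82), MRPS18A (−0.64) and MRPS35 (−0.59).

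A cosinor curve with a yearly period likewise called 0 members and 0 genes (0% called), with 3 members and 729 genes under an unadjusted 0.05. Those were MRPS34, a small subunit protein, with a limma adjusted p = 0.643, and MRPL53 and MRPL32, of the large subunit (0.658 each). The seasonal change differed between the sexes in 0 members and 0 genes (0% called), with 5 members and 233 genes under an unadjusted 0.05. Those 5, MRPL50, MRPS5, MRPS25, MRPL48 and MRPS24, all had a lower summer minus winter difference in females than in males, with MRPL50 in the lead (−3.09 ± 0.94, SE, limma adjusted p = 0.9997). Over all members the median of that difference was −0.44, and over all genes −0.21.

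The family was coherent as a mean but only weakly gene by gene. On deposited values the median Pearson correlation over pairs of members was 0.30 across 31 libraries, against 0.21 over all gene pairs. After scaling it was 0.12, against 0.01 over all pairs, and 70.2% of the member pairs were above 0. It was 0.14 among MRPL and 0.08 among MRPS genes, 0.11 among members with bacterial counterparts and 0.14 among those without, and 0.10 with animal means removed. The mean of the MRPL genes and the mean of the MRPS genes, by contrast, correlated at 0.83 after scaling (rho 0.78), at 0.72 without the 2 libraries of extreme MRPL mean and between 0.76 and 0.92 within single animals. Libraries are shared by all these values, and those of an animal are not independent. The scaled family mean was lowest in the July and February libraries of Kai and the May library of Pele (3.88, 3.94 and 3.99). These had 9, 10 and 8 members at 0. It was highest in the August library of Hua and the March library of Pele (5.23 and 5.09), each with 0 members at 0. The 2 libraries left out above were these 2 high ones. The part of the zeros in the correlations was not tested.

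Cytosolic ribosomal proteins, read from the same libraries, were more alike among themselves. Their 65 measured genes had a median level of 3911 FPKM, and their median pairwise correlation after scaling was 0.75, though they are far more abundant than the mitochondrial ones. With the 72 mitochondrial ribosomal proteins they had a median pairwise correlation of 0.07, where mitochondrial tRNA synthetases also had 0.07 and complex I had 0.12. Over all lists this value ran from −0.16 (platelet markers) to 0.16 (B cell markers), with 0.15 for complexes IV and V. Among the members themselves it was 0.12. The mean of the cytosolic ribosomal proteins correlated with the family mean at 0.26 over 31 libraries, at 0.63 in Keo, 0.72 in Pele and 0.40 in Hua, and at −0.18 in Kai. Of the 65, 14 were lower and 0 higher in females as deposited, where 0.937% of all genes were lower and 12.1% higher. After scaling 31 were lower and 0 higher, where 1.82% of all genes were lower and 0.593% higher.

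Among the members, MRPL51, MRPL42 and MRPL33 correlated best with the others after scaling (mean r 0.24, 0.23 and 0.22). MRPL34 (−0.05), MRPL10 (−0.04) and MRPL53 (−0.03) were at the other end. Each member set against the mean of the other 71 had a median r of 0.36, from −0.12 to 0.70, and genes outside the family had a median r with its mean of 0.05. Outside the family the named genes most like its scaled mean were CCT2 (r 0.78), a subunit of the cytosolic chaperonin, C1orf123 (0.78), EIF3M (0.76), a subunit of translation initiation factor eIF3, PPIA (0.76), cyclophilin A, and CDKN2AIPNL (0.75), over 31 libraries.

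The means of nuclear respiratory chain and mitochondrial biogenesis genes correlated with the family mean to differing degrees, and that of the mitochondrially encoded genes did not follow it. After scaling, the list mean correlated with the family mean at 0.82 for complex I (29 genes, rho 0.77), 0.81 for import and chaperones (25 genes), 0.78 for mitochondrial genome expression (13 genes), 0.71 for translation factors (13 genes), 0.68 for complex IV (9 genes), 0.57 for complexes II and III (9 genes) and 0.55 for complex V (14 genes). It was 0.58 for mitoribosome assembly factors (19 genes) and 0.48 for mitochondrial tRNA synthetases (19 genes), but 0.31 for the TCA cycle (17 genes) and 0.27 for the 7 mitoribosome components with other names. Within single animals complex I ran from 0.78 to 0.93, import and chaperones from 0.66 to 0.93 and genome expression from 0.67 to 0.94. Other lists were less even, with translation factors as low as 0.11 and tRNA synthetases 0.20 in Hua, and complex V 0.28 and complexes II and III 0.35 in Kai. Without the 2 libraries of extreme family mean, the high August library of Hua and March library of Pele, complex I stood at 0.68 and complex V at 0.34. Some blood cell markers gave values of like size to the weaker of these lists. On scaled values these were 0.44 for B cell (7 genes), 0.28 for T cell (11 genes) and −0.54 for platelet markers (3 genes). On deposited values they were 0.74, 0.73 and −0.14. The nuclear mitochondrial lists then ran from 0.68 (mitoribosome components with other names) to 0.90 (import and chaperones), with 0.89 for complex I. Other markers were nearer 0 on scaled values, at 0.20 (NK and cytotoxic), −0.05 (erythroid), −0.13 (neutrophil) and −0.20 (monocyte). On deposited values these gave 0.59, −0.34, 0.32 and 0.49. The part of the blood cell types in the correlations was not tested. Lists differ in length and abundance, which also sets how well a mean can correlate.

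For the 10 measured protein-coding genes of the mitochondrial genome the same correlation was −0.16 (rho −0.27), or −0.13 on deposited values. The animals disagreed, with 0.23 in Keo, −0.19 in Pele, 0.47 in Hua and −0.71 in Kai. These 10 genes moved closely with one another (median pairwise r 0.70). ATP6, a subunit of ATP synthase, was the most abundant, at 3745 ± 888 FPKM in females and 2736 ± 739 FPKM in males. On deposited values it was the only 1 of the 10 called between the sexes (log2 difference 0.46, limma adjusted p = 0.0295). Of all genes, 12.1% were called higher in females on these values. After scaling, the log2 difference of ATP6 was 0.09 (limma adjusted p = 0.870) and 0 of the 10 were called. In summed FPKM the 10 genes gave 6486 ± 1857, against 2674 ± 595 for the 72 mitochondrial ribosomal proteins (SD, n = 31).

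**Figure D5:**
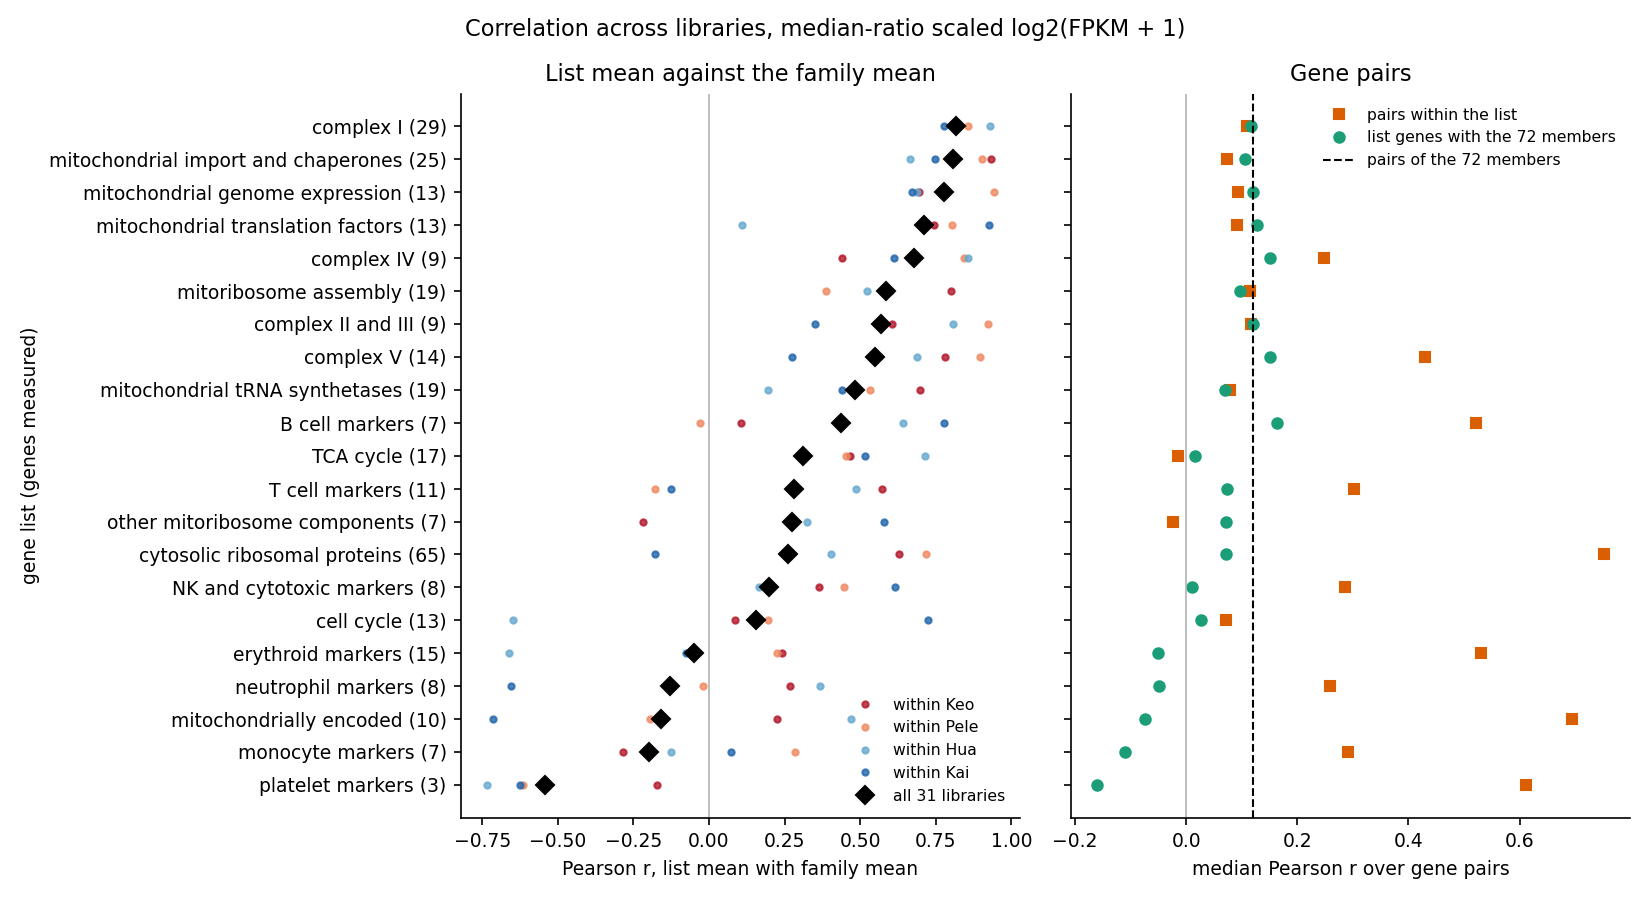
Correlation across libraries on median-ratio scaled log2(FPKM + 1). Left, the mean of each list with the mean of the 72 members over 31 libraries (diamonds) and within each animal (small points, 7 to 9 libraries); right, the median over gene pairs within each list (squares) and between its genes and the members (circles), with a dashed line at the members' own 0.12. Complex I leads at 0.82 on the left, and cytosolic ribosomal proteins at 0.75 on the right.

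In the comparison of the sexes the other mitochondrial lists had between 0 and 4 calls each, beside 12.1% of all genes higher in females and 0.937% lower. On deposited values, 3 of 29 complex I genes were higher in females and 0 lower, 1 and 1 of 9 in complexes II and III, 0 and 1 of 9 in complex IV, 0 and 1 of 14 in complex V, 4 and 0 of 17 in the TCA cycle, 1 and 0 of 25 in import, 2 and 0 of 19 among tRNA synthetases and 1 and 0 of 13 among translation factors. The TCA cycle list had the most calls for its length on these values, and 0 after scaling. Scaled, 3 of 14 genes in complex V, 2 of 9 in complex IV, 1 of 9 in complexes II and III and 1 of 29 in complex I were lower. Of all genes, 0.593% were then higher and 1.82% lower. Neither the 19 assembly factors nor the 13 genes of mitochondrial genome expression had a call. On deposited values, the medians of these nuclear lists ran from −0.001 (complex V) to 0.44 (TCA cycle), with 0.34 over all genes, and the mitochondrially encoded genes had 0.72.

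The leading genes of these lists were NDUFV1 of complex I (47.8 ± 10.8 FPKM in females and 31.5 ± 13.2 FPKM in males, log2 difference 0.66, adjusted p = 0.014), OGDH of the ketoglutarate dehydrogenase complex (35.8 ± 9.84 and 21.3 ± 8.68 FPKM, 0.77, 0.00561) and GARS, the glycyl-tRNA synthetase of cytosol and mitochondria (52.7 ± 12.0 and 32.2 ± 9.42 FPKM, 0.72, 0.00336). The lower ones were ATPIF1, the inhibitor of ATP synthase, at 14316 ± 3150 FPKM in females and 26137 ± 8475 FPKM in males (log2 difference −0.84, adjusted p = 0.000451), UQCRQ of complex III (−0.57, 0.0244) and COX6B1 of complex IV (−0.38, 0.0303). These 3 stayed lower after scaling (adjusted p = 0.0011, 0.00405 and 0.0117), whereas NDUFV1, OGDH and GARS were not called then (0.255, 0.228 and 0.0609). GADD45GIP1, a large subunit protein outside the MRPL names, averaged 44.8 ± 12.5 FPKM in females and 59.4 ± 17.6 FPKM in males, with an adjusted p of 0.123 as deposited and 0.00913 scaled.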

How the data were processed

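RNA-seq values of 31 globin-depleted blood libraries were used. As the paper and labels state, reads were trimmed (Trimmomatic) and mapped to turTru1, the dolphin assembly of Ensembl, by Bowtie2 2.2.4 for one table and TopHat2 2.3.13 for the other, and the authors deposited FPKM from RSEM 1.2.18 (9610 genes) and Cufflinks 2.2.0 (8030 genes). RSEM shares reads that map to several loci among them, so values of members with pseudogene copies are uncertain. The RSEM table holds no gene with a mean FPKM under 1 and none above 0 in fewer than 16 libraries. Only a targeted depth is stated and the depth reached per library is not given in the sources used here, so no counting interval was computed. A de novo table and the authors' own log2 fold changes with posterior probabilities (EBSeq) were not used. No column of a sample was left out.

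The R package limma (3.58.1, under R 4.3.3) was applied to log2(FPKM + 1) (mean-variance trend, Benjamini-Hochberg over all genes, threshold 0.05), after a check on simulated data with 9610 genes for the comparison of the sexes, in which 66% of genes changed by log2 1 and 98% of those changed by log2 2 were recovered. In that check libraries were drawn independently, with no animal effect, and only genes with a mean log2(FPKM + 1) above 2 were changed. The shares recovered therefore do not cover repeated libraries of an animal or scarcer genes. Female minus male and the animals used 31 libraries, summer minus winter 16. Correlations were computed in Python 3.11.15 and are descriptions without a test. Named members were those with extreme levels, differences, variation or correlation, those past a threshold and those at 0 most often. Members and lists were chosen with earlier results of these data known. Cytosolic ribosomal proteins were added as a list after the data were seen, as were MRPL47, MRPS24 and MRPS28 to the members with bacterial counterparts. Coordinates and promoters were not used here: the gene list given was of a different assembly and held no sequence.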

Additional observations from a re-analysis of the deposited data

Results flagged for a closer look

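Within single animals, 56 sets of 7 to 9 libraries (14 measures in each of 4 animals) were examined for a library far from the rest, by its gap to the nearest library as a share of the range. Chance flags about 1 in 20 such sets, or 2.8 of the 56, and 3 were found. The large to small subunit ratio of the May library of Hua was 2.39, with 1.82 to 2.01 in the other 7 libraries of that animal. MRPS18B was at 40.2 FPKM in the June library of Keo, with 11.3 to 23.9 FPKM in the other 8. MRPS18C was at 26.3 FPKM in the April library of Kai, with 0 to 11.2 FPKM in the other 6. No test of the seasonal change between the sexes passed for any member.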

How the results depend on the processing

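The count of members called between the sexes (4) was the least stable result. It was 0 with median-ratio scaling, in the scaled Cufflinks table, with animal as a random block (scaled or not), with means per animal, without Kai, Keo or Pele (scaled or not), and without the February and July libraries of Kai (scaled or not). It was 11 without Hua (10 higher and 1 lower in females) and 2 without the July and August libraries of Pele. With scaling and without Hua it was 2, both lower in females. Over all 9610 genes, 1252 calls became 1315 without Hua and 982 without the July and August libraries of Pele. They became 232 with scaling, 690 with the random block, 0 with means per animal, and 564, 295 and 225 without Kai, Keo and Pele. They were 638 without the 2 libraries of Kai, 225 in the scaled Cufflinks table, and 84 to 376 where scaling was joined with another change.

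The count over the animals (5) was 0 without Kai or its February and July libraries (scaled or not), 1 in the Cufflinks table and without Hua (scaled or not) or Pele, 2 in the scaled Cufflinks table, with scaling, and with scaling without Keo or Pele, and 3 with a pseudocount of 0.1 and without the July and August libraries of Pele. Over all genes, 988 calls became 579 in the scaled Cufflinks table, 348, 411 and 527 without Kai, Hua and Pele, 473 without the 2 libraries of Kai, and 191 to 669 where scaling was joined with leaving out libraries. MRPS36 and MRPS28, lower in females without passing, changed sign: the log2 difference of MRPS36 was 0.0481 in the Cufflinks table, 0.0337 without Kai, 0.3806 without Keo and 0.0121 with scaling without Keo, and that of MRPS28 was 0.0054 without Hua. The cause was not tested.

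The subunit ratio (1.88) was 1.33 as a fold per gene, from the difference of the mean log2 levels, and 2.55 without the 3 most abundant genes of each subunit. The median pairwise correlation (0.30) was 0.12 with scaling, 0.10 with animal means also removed and 0.13 in the scaled Cufflinks table. The counts for summer against winter, the cosinor curve and season by sex were 0 under every alternative run for each, including animal as a block (1, 4 and 5 members with an unadjusted p under 0.05). Leaving out each of the 16 libraries in turn was run for summer against winter only, and gave 0. Settings that leave out the 2 libraries of Kai or those of Pele, use the scaled Cufflinks table, join scaling with another change or assign subunits by structure were chosen after seeing the data. The search for promoter motifs was not run, for want of sequence. Library numbers only name the samples of an animal and were not used as pairs.

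Limits are few animals (2 of each sex), repeated libraries, and the unknown depth reached in each library, which leaves the scarce members, such as MRPL19 with zeros in 12 libraries, without an error of their own.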
